A study of Mus musculus with 10 samples.

Results

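Liver tumours driven by the oncogene c-MYC were compared with normal mouse liver by RNA sequencing. The comparison takes 7 of the 10 libraries of the series, namely 3 of c-MYC tumours (c-MYC 1 to 3) and 4 of normal liver (NL 1 to 4), placed in their groups by the sample titles. Genes entered when their FPKM, the fragments per kilobase of gene and scaled to the library size, reached 1 in 3 or more of these libraries, which held for 12929 of 16697 gene entries. The study made these libraries to ask how an active form of FOXO1 alters c-MYC tumours, and its 3 libraries with that factor were not compared here.

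The tumours were produced by hydrodynamic tail vein injection of a plasmid that expresses c-MYC from the EF1α promoter, together with the empty pT3-EF1α vector. A plasmid for the Sleeping Beauty transposase was injected as well, so that c-MYC was integrated into the hepatocytes that had taken up DNA. The EF1α promoter is active in most cell types, and the restriction to hepatocytes comes from the route of delivery. One figure legend of the study also lists MCL1 among the plasmids of the control tumours, whereas its methods and the labels name only c-MYC and the empty vector. The normal livers were those of wild-type mice, and no injection is mentioned for them. The strain is C57BL/6 in the sample characteristics but FVB in the extraction protocol and FVB/N in the methods. The age of the mice is not given in the sources used here, both sexes were used in the study, and the tumours came from animals with an advanced tumour burden. The p-values measure the spread between these libraries.

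c-MYC is a transcription factor that pairs with MAX, binds the E-box sequence CACGTG and raises ribosome production, nucleotide synthesis and entry into the cell cycle. The hepatocyte is the metabolic cell of the liver and secretes most plasma proteins, detoxifies drugs, makes bile acids and urea and keeps blood glucose up during fasting. Its mature state is held by a network of transcription factors that includes HNF4A and CEBPA, and the fetal liver expresses another set of genes such as Afp, H19 and Igf2. Around the hepatocytes lie sinusoidal endothelial cells, stellate cells and Kupffer cells, which are the resident macrophages.

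Increases in c-MYC numbered 3262 (25.2% of the 12929 genes) and decreases 3232 (25.0%), so that 50.2% were called with limma treat, which tests for a change above 1.5-fold, at a Benjamini-Hochberg adjusted p under 0.05. Across all genes tested, log2 fold changes had a median of 0.08. The ranges of NL and c-MYC were apart for 77.0% of them, so that separation of the groups is the common case here and not a feature of the genes named below. The falls were deeper than the rises. More than 16-fold changes were called for 715 lower and 343 higher genes, and more than 64-fold changes for 308 lower and 8 higher genes. The libraries held between 13123719 reads (NL 4) and 17031480 reads (NL 1) in listed genes. The submitters had scaled the libraries, and the FPKM total of the NL libraries (1063646 to 1126395) was therefore well above that of the c-MYC libraries (551204 to 588217). When every library was given the same FPKM total, this median moved to 1.01, and 6659 genes were called higher and 1902 lower in place of 3262 and 3232. Values below refer to the deposited scale. Every higher or lower call is relative to it, and for lists whose balance of higher and lower genes turned with equal FPKM totals both counts are given. At the edge of the filter, the third-highest FPKM was 1.0006 for Otub2 and 1.0032 for Drc3, which were tested, and 0.9975 for Rps19-ps7 and 0.9970 for Adm, which were not.

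The NL libraries were not alike in genes that are abundant in the tumours, and this bears on the size of the increases on the fetal and mitosis lists. H19, an imprinted non-coding RNA of the fetal liver (chromosome 7, 142575529 to 142578143, GRCm38), stood at 1403, 88.4, 669 and 329 FPKM in NL 1 to 4 and at 16621, 16764 and 20337 FPKM in c-MYC 1 to 3. Afp, the fetal relative of albumin (chromosome 5, 90490737 to 90508907), stood at 169, 11.1, 76.9 and 36.6 FPKM in NL and at 1879, 2781 and 1635 FPKM in c-MYC. Both genes had the same order in the NL libraries, with NL 1 highest, then NL 3 and NL 4, and NL 2 lowest. The 18 fetal and oncofetal genes called higher had a median level of 7.95% of their c-MYC mean in NL 1, 3.7% in NL 3, 1.79% in NL 4 and 0.624% in NL 2. The 43 mitosis genes stood at medians of 9.17%, 3.59%, 2.36% and 1.22% in the same 4 libraries. NL 1 held the highest of the 4 values for 17 of the 18 fetal genes and 40 of the 43 mitosis genes, and NL 2 the lowest for 17 and 31. What put these transcripts into the NL libraries was not tested. With NL 2 as the only NL library, the median log2 fold change was 6.56 in place of 5.09 for the fetal list and 6.19 in place of 4.93 for the mitosis list. The same fit called 2959 genes higher and 2548 lower, and it takes the spread of NL from the c-MYC libraries.

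**Figure D1:**
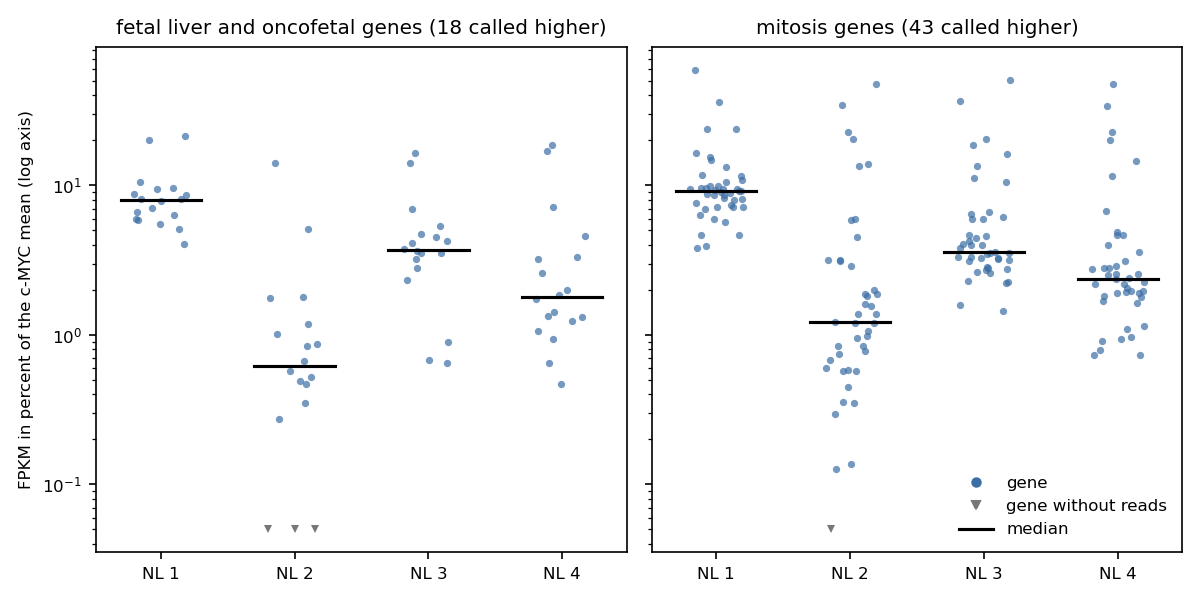
Level of each gene called higher on the fetal liver list (left, 18 genes) and on the mitosis list (right, 43 genes) in the 4 NL libraries, as percent of the mean of the c-MYC libraries on a log axis, with black bars at the median. The median is highest in NL 1 (7.95% and 9.17%) and lowest in NL 2 (0.624% and 1.22%).

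Hepatocyte transcription factors were reduced unevenly. Of the 24 on the list, 17 were lower, none was higher and 7 were not called, with a median log2 fold change of -2.14. The counts were 12 lower and 2 higher with equal FPKM totals, with a median of -1.22. Cebpa, a master regulator of hepatocyte metabolism (chromosome 7, 35119293 to 35121928), stood at 505, 416, 426 and 479 FPKM in NL 1 to 4 and at 144, 139 and 124 FPKM in c-MYC 1 to 3. The c-MYC libraries lay well below NL, and the fall of Cebpa was 3.36-fold (log2 fold change -1.75, SE 0.10, limma adjusted p 8.93e-06). Hnf4a, the central nuclear receptor of the hepatocyte (chromosome 2, 163506808 to 163572910), stood at 181, 164, 197 and 190 FPKM in NL and at 83.7, 112 and 87.3 FPKM in c-MYC. Its fall of 1.95-fold (log2 fold change -0.97, SE 0.12, limma adjusted p 0.0144) was lost with equal FPKM totals, where the log2 fold change was -0.04, and also without c-MYC 1 (-0.89) or c-MYC 3 (-0.92). Onecut2 fell the most. Its average was 7.18 FPKM ± 0.632 in the 4 NL livers (SD) and 0.0304 FPKM ± 0.0143 in the 3 tumours (SD), with 2, 5 and 9 reads in the c-MYC libraries. The nuclear receptors Nr1i3, which senses xenobiotics, and Nr0b2, which represses bile acid synthesis, fell by 4.43 and 6.21 on the log2 scale. Prox1 was not called (0.16).

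A pair of pioneer factors separated the tumours from each other. Foxa1 stood at 9.34, 12.4, 14.7 and 8.94 FPKM in NL and at 6.88, 0.0537 and 0.225 FPKM in c-MYC 1 to 3. Gata6 stood at 3.56, 3.22, 3.93 and 2.86 FPKM in NL and at 3.12, 0.0530 and 0.272 FPKM in c-MYC 1 to 3. Both genes were near the NL level in c-MYC 1, and both were close to absent in c-MYC 2 and c-MYC 3, where c-MYC 2 held a single read of each. Foxa1 was called (log2 fold change -4.67, SE 1.44, limma adjusted p 0.0315) and Gata6 was not (-3.24, SE 1.19, limma adjusted p 0.0684). Without c-MYC 1 both were called, with log2 fold changes of -6.66 for Foxa1 and -4.81 for Gata6. The call of Foxa1 was lost with equal FPKM totals (-3.74) and without NL 2 (-4.62), NL 3 (-4.54), NL 4 (-4.77), c-MYC 2 (-3.16) or c-MYC 3 (-4.19).

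Genes of hepatocyte secretion and metabolism fell as groups. Of 38 plasma protein genes 37 were lower, with a median log2 fold change of -3.11, and Itih3 was not called (-0.66). Together they made up 19.1% to 20.4% of the FPKM total in NL and 3.17% to 4.05% in c-MYC, a share that does not depend on the scaling between libraries. Alb, which encodes serum albumin (chromosome 5, 90460897 to 90476602), stood at 45210, 44600, 39557 and 43306 FPKM in NL and at 512, 1435 and 562 FPKM in c-MYC. The highest tumour library, c-MYC 2, was still far below the lowest NL library, and the fall of Alb was 57.9-fold (log2 fold change -5.86, SE 0.33, limma adjusted p 3.29e-06). The iron hormone Hamp and the complement component C9 had log2 fold changes of -8.99 and -8.92. The apolipoprotein Apoa1 and the thyroxine carrier Ttr kept more of their level and fell by 3.67 and 3.01. In bulk tissue, fewer hepatocyte-like cells and less RNA of a gene in each cell cannot be told apart.

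Cytochromes P450 and genes of bile acid metabolism fell. All 23 cytochromes P450 were lower, with a median log2 fold change of -8.41 and values from -11.75 to -2.0. In every c-MYC library 5 of the 23 stood under 1 FPKM, so that these could differ only by being lower. Cyp2e1, which oxidises ethanol and small solvents (chromosome 7, 140763739 to 140774987), stood at 8720, 6625, 7645 and 8020 FPKM in NL and at 9.81, 2.82 and 27.5 FPKM in c-MYC. The fall of Cyp2e1 was 845-fold (log2 fold change -9.72, SE 0.66, limma adjusted p 9.37e-06). All 21 tested genes of bile acid synthesis and transport were lower, with a median of -5.60, and the same limit holds for 5 of the 21. Cyp7a1, the rate-limiting enzyme of bile acid synthesis, averaged 1372 FPKM ± 418 in the 4 NL livers (SD) and 37.2 FPKM ± 36.2 in the 3 tumours (SD), and c-MYC 2 held 79.0 FPKM against 17.5 and 15.1 FPKM in the other tumours. Slc10a1, which takes bile acids up from the blood, had a log2 fold change of -4.16, and the organic anion transporter Slco1a1 one of -9.61.

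Among the genes with the largest changes and at least 10 FPKM in a group, 11 of the 20 with the deepest falls were major urinary protein genes. All 18 tested Mup genes were lower, and their summed level went from between 43365 and 48797 FPKM in NL to between 3.80 and 30.7 FPKM in c-MYC. Because the Mup genes resemble each other too closely for reads to be assigned with certainty, only their sum is given. The steroid enzyme gene Hsd3b5 held no read in any c-MYC library and 2926 to 4690 reads in the NL libraries, which makes it at least 2354-fold lower when 3 reads are allowed for in each c-MYC library. Hsd3b5 belongs to the male-biased genes of the liver, of which 9 of 9 were lower with a median log2 fold change of -7.82. Among these, 5 stood under 1 FPKM in every c-MYC library and could differ only by being lower. Of 4 tested female-biased genes, Cux2 and Hao2 were higher, Cyp2b9 was lower and Acot3 was not called. Hao2 stood under 1 FPKM in every NL library and could differ only by being higher. Over all 6 female-biased genes in the table, fitted with no filter, 2 were higher and 3 lower, with a median of -1.41. All 4 listed Y-linked genes held reads in all 7 libraries.

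Genes of glucose production and nitrogen handling fell too. Of 13 genes of gluconeogenesis and glycogen, 12 were lower, with a median log2 fold change of -3.54, and the pyruvate carboxylase gene Pcx was not called (-0.23). Pck1, which commits carbon to gluconeogenesis (chromosome 2, 173153048 to 173159273), stood at 1281, 1623, 1514 and 1274 FPKM in NL and at 0.741, 0.364 and 1.84 FPKM in c-MYC, a fall of 1786-fold (log2 fold change -10.80, SE 0.48, limma adjusted p 8.77e-07). All 8 urea cycle genes were lower, with a median of -1.92, and 5 of them with equal FPKM totals. Cps1, the first enzyme of the cycle (chromosome 1, 67123026 to 67231259), stood at 687, 763, 768 and 710 FPKM in NL and at 50.9, 103 and 116 FPKM in c-MYC, a fall of 8.64-fold (limma adjusted p 3.01e-05). Of 35 genes of amino acid catabolism, 32 were lower, with a median of -3.30. Tdo2 and Tat, which open the breakdown of tryptophan and tyrosine, had log2 fold changes of -10.14 and -9.91. Gldc, the glycine-cleaving decarboxylase, was the member that rose, by 1.45 (limma adjusted p 0.000246).

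Genes of both ends of the liver lobule fell. Around the central vein, hepatocytes receive Wnt signals, and 15 of 16 pericentral genes were lower with a median log2 fold change of -4.94. However, 6 of the 16 stood under 1 FPKM in every c-MYC library, passed through NL and could differ only by being lower. Glul, the glutamine synthetase of pericentral cells, stood at 300.1, 258, 261 and 249 FPKM in NL and at 46.5, 52.4 and 43.8 FPKM in c-MYC. The Wnt target Axin2 held 2, 0 and 1 reads in the c-MYC libraries and was at least 55.2-fold lower. Znrf3, which removes Wnt receptors, was the pericentral gene that rose (1.15, limma adjusted p 0.0324), a call lost without NL 2 (1.16), NL 4 (1.08), c-MYC 1 (1.21) or c-MYC 2 (0.97). Of 15 periportal genes, 13 were lower with a median of -3.52, and Cdh1, the epithelial cadherin, rose by 2.84 (limma adjusted p 4.12e-06). Of 17 acute phase proteins, 16 were lower with a median of -4.64, and 4 of the 17 stood under 1 FPKM in every c-MYC library.

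Lipid metabolism moved less than these lists and depended more on the scaling. Of 21 genes of fatty acid oxidation and ketogenesis, 16 were lower with a median log2 fold change of -1.54, and with equal FPKM totals 7 were lower and 4 higher. The fatty acid carrier Fabp1 fell by 5.60, while the medium-chain dehydrogenase Acadm stood at 245 and 255 FPKM in the groups. Of 19 genes of cholesterol synthesis, 12 were lower with a median of -1.49, and this count was 6 with NL 2 alone and 4 with equal FPKM totals. Of 13 genes of fatty acid synthesis, 8 were lower and 1 was higher, with a median of -1.28. The gene that rose was the desaturase Scd2, by 5.10 (limma adjusted p 0.000393), against a fall of 6.94 for its liver relative Scd1. Fasn, the fatty acid synthase, was not called (-1.05, limma adjusted p 0.126), but was without NL 3 (-1.29).

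Genes of the fetal liver rose. Of 28 genes on the fetal and oncofetal list, 27 were in the table and 20 passed the filter. Of these 20, 18 were higher and none was lower, with a median log2 fold change of 5.09. However, 7 of the 20 stood under 1 FPKM in every NL library, so that they passed through the tumours and could differ only by being higher. Over all 27 genes in the table, fitted with no filter, 20 were higher and 1 was lower, with a median of 4.46. H19 rose by 5.46 (43.9-fold, SE 0.83, limma adjusted p 0.000944) and Afp by 5.42 (42.7-fold, SE 0.83, limma adjusted p 0.00099). With NL 2 alone the log2 fold changes were 7.66 for H19 and 7.53 for Afp. Igf2, the fetal growth factor (chromosome 7, 142650766 to 142666816), stood at 28.3, 1.49, 11.4 and 5.33 FPKM in NL and at 406, 639 and 395 FPKM in c-MYC. The RNA-binding proteins Igf2bp1 and Igf2bp3, which are expressed in the embryo, rose by 6.37 and 6.21, and Igf2bp1 was lower in c-MYC 1 (1.60 FPKM) than in c-MYC 2 and c-MYC 3 (8.97 and 6.50 FPKM). The proteoglycan gene Gpc3, a marker of human liver cancer, was not called and stood at 1.03 FPKM ± 0.572 (SD, n = 4) in NL and 0.951 FPKM ± 0.652 (SD, n = 3) in c-MYC. Mest was not called either (0.27).

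In the growth factor axis the adult ligand fell and the fetal ligand rose. Of 16 tested genes of the growth hormone and IGF axis, 7 were lower and 2 were higher, with a median log2 fold change of -0.95. At equal FPKM totals 7 were lower and 5 higher, and the median was -0.02. Igf1, the adult ligand made by hepatocytes, fell 82.4-fold and averaged 612 FPKM ± 27.1 in the 4 NL livers (SD) and 7.46 FPKM ± 0.960 in the 3 tumours (SD). The growth hormone receptor gene Ghr fell by 3.30 and Igf2r, which clears IGF2, rose by 2.32. Biliary and progenitor markers gave no common direction. Epcam, Krt7 and Cldn7 were higher, with log2 fold changes of 3.71, 3.69 and 4.51, while Spp1 and Aqp1 were lower. Krt7 stood under 1 FPKM in every NL library and could differ only by being higher. Over all 13 markers in the table, fitted with no filter, 4 were higher and 4 lower, with a median of 0.0. The biliary genes Krt19 and Sox9 were under the filter.

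**Figure D2:**
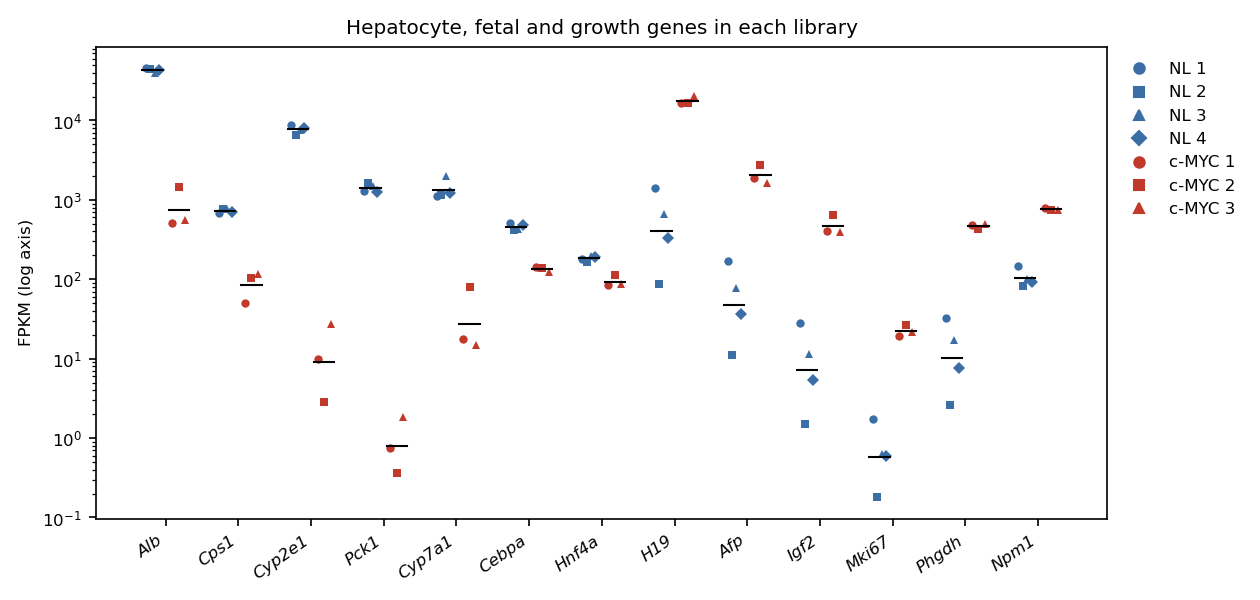
FPKM (log axis) of 13 genes in the 4 NL libraries (blue) and the 3 c-MYC libraries (red), with a marker shape per library and black bars at the geometric mean of each group. Alb, Cps1, Cyp2e1, Pck1, Cyp7a1, Cebpa and Hnf4a lie lower in c-MYC, the other 6 genes lie higher, and H19, Afp, Igf2, Mki67 and Phgdh spread widely over the NL libraries. The difference of Hnf4a is absent with equal FPKM totals (log2 fold change -0.04).

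The growth side was examined from c-MYC outwards. Mouse Myc (chromosome 15, 61985391 to 61990374) stood at 4.17, 22.2, 12.3 and 5.94 FPKM in NL and at 0.561, 0.699 and 1.05 FPKM in c-MYC, a fall of 12.2-fold (log2 fold change -3.61, SE 0.55, limma adjusted p 0.00109). All 3 tumours lay below all NL libraries, although a c-MYC plasmid was injected. Whether reads of the transgene were counted at Myc, and from which species its sequence comes, is not given in the sources used here, so that this gene gives no check of the labels. Of 14 tested genes of the MYC network, 5 were higher (35.7%, against 25.2% of all genes) and 4 lower (28.6%, against 25.0%). With equal FPKM totals 8 were higher and 2 lower. Mxd3, a MAX partner of dividing cells, rose by 4.50, the MAX gene Max by 1.19 and the glucose-sensor partner Mlxip by 1.91. Mxd3 stood under 1 FPKM in every NL library and could differ only by being higher.

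Most known MYC target genes rose. Of 34 genes, 30 were higher with a median log2 fold change of 2.01, 3 were not called and the cyclin gene Ccnd2 was lower (-1.84). Under equal FPKM totals 33 were higher and none was lower, since the call of Ccnd2 was lost (-0.91). Npm1, the nucleolar chaperone (chromosome 11, 33152287 to 33163206), stood at 146, 83.0, 101 and 92.7 FPKM in NL and at 787, 756 and 742 FPKM in c-MYC, a rise of 7.38-fold (log2 fold change 2.88, SE 0.18, limma adjusted p 4.09e-06). The kinase gene Cdk4 rose by 2.31, the polyamine enzyme Odc1 by 2.07, the transferrin receptor Tfrc by 3.06 and the pyrimidine enzyme Cad by 3.13. The promoters of these genes, from 250 bases before to 50 after the start, were searched for CACGTG in the RefSeq table of GRCm38.p6, which held promoters of 28 of the 34 genes. This motif reads the same on both strands. It was found in 10 of 33 promoters of the list (30.3%) and in 7.15% of all 32851 promoters. The share was 16.7% for ribosome biogenesis genes, 11.6% for all genes called higher, 8.52% for all called lower and 9.89% for genes not called. None of the 33 promoters of plasma protein genes held it. The target list was drawn up from known MYC targets, so that its E-boxes are no independent evidence. The sequences, 5′ to 3′ with the E-box in capitals, are the promoters with the most E-boxes on the list, Cdk4 (chr10:127063285-127063584, plus strand) and Apex1 (chr14:50924699-50924998, plus strand), and those of a nucleolar methyltransferase gene, Nop2 (chr6:125131633-125131932, plus strand), and a purine synthesis gene, Impdh2 (chr9:108560186-108560485, plus strand).
Cdk4: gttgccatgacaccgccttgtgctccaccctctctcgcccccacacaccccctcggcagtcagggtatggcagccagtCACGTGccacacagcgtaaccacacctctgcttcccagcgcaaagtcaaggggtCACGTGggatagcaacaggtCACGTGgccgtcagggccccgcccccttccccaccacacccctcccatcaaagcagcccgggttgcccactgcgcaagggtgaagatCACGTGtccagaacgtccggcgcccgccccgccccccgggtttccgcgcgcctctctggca
Apex1: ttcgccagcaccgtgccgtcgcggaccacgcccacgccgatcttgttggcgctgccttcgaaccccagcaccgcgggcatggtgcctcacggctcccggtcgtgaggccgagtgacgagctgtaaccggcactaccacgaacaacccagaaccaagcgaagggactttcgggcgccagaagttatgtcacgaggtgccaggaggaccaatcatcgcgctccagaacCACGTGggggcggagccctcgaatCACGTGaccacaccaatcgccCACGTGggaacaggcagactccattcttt
Nop2: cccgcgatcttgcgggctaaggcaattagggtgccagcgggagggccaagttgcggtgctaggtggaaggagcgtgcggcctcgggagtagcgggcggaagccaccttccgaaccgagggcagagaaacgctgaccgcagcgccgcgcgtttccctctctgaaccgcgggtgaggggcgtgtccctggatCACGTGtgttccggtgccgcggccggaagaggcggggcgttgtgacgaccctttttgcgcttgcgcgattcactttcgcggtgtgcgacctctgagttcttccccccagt
Impdh2: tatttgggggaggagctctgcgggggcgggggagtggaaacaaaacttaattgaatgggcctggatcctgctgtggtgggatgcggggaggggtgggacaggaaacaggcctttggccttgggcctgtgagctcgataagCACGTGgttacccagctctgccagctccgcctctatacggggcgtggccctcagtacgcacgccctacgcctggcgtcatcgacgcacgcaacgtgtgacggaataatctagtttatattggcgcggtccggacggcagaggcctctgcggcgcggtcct

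All 4 genes shown were higher. Cdk4 rose by 2.31, the repair endonuclease Apex1 by 2.16, Nop2 by 2.57 and Impdh2 by 2.50 on the log2 scale. In this window Cdk4 has 4 E-boxes, Apex1 3 and Nop2 and Impdh2 1 each. Whether the number of E-boxes goes with the fold change was not tested. A match of these letters is a description and does not show that c-MYC is bound there.

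Genes of ribosome production rose. Of 46 genes of ribosome biogenesis and RNA polymerase I, 43 were higher, none was lower and 3 were not called, with a median log2 fold change of 2.03. Polr1a and Polr1b, the large subunits of RNA polymerase I, rose by 2.92 and 2.47, the methyltransferase Fbl by 1.97 and the pseudouridine synthase Dkc1 by 2.83. Of 81 cytosolic ribosomal protein genes, 58 were higher and 23 were not called, with a median of 1.22. These 81 genes took 2.87% to 3.54% of the FPKM total in NL and 12.8% to 15.7% in c-MYC. Many ribosomal protein genes have processed copies that share reads, and single values such as those of Rpl13a (2.87) and Rpl35a (-0.50) are uncertain. Of 20 cytosolic tRNA synthetases 15 were higher, and Aars, for alanine, was lower (-1.89, limma adjusted p 1.76e-05). Of 53 translation initiation factors and their regulators, taken by symbol, 24 were higher and 4 lower, with a median of 0.77, and with equal FPKM totals 44 were higher and 1 lower. Eif3a rose by 1.94 and the cap-binding factor Eif4e by 1.26, and the repressor of the cap-binding factor Eif4ebp3 fell by 2.72.

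Mitochondrial genes gave counts that depended on the scaling. Of 77 mitochondrial ribosomal protein genes, 7 were higher (9.09%, against 25.2% of all genes) and 1 was lower (1.3%, against 25.0%). The median log2 fold change was 0.28, and with equal FPKM totals 58 were higher, none was lower and the median was 1.21. Of 81 nuclear genes for the respiratory chain, 22 were lower (27.2%, against 25.0% of all genes). Only 1 was higher (1.23%, against 25.2%), and the median was -0.59. This sign turned with the scaling, since with equal FPKM totals the median was 0.33, 12 were higher and 2 lower, and their share of the FPKM total was 2.50% to 2.69% in NL and 3.35% to 3.99% in c-MYC. Uqcrq, a subunit of complex III, fell by 1.87 (limma adjusted p 0.000111), and Cox6b2, the testis form of a complex IV subunit, rose by 3.36 (limma adjusted p 3.69e-05). Of 29 mitochondrially encoded genes, 20 were lower and none was higher, with a median of -2.05. They took 6.75% to 9.36% of the FPKM total in NL and 3.59% to 4.78% in c-MYC. The 29 include short transfer RNA genes, so that this median is not one of respiratory chain genes alone. Among them mt-Tq, mt-Tm and mt-Ta held at most 1, 2 and 1 reads in any c-MYC library.

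Cell division genes rose throughout. All 43 mitosis genes were higher, against 25.2% of all genes. Their log2 fold changes ran from 0.97 for Bub3 to 6.10 for Ccnb1, with a median of 4.93. However, 8 of the 43 stood under 1 FPKM in every NL library, passed through the tumours and could differ only by being higher. Mki67, the proliferation antigen (chromosome 7, 135689784 to 135716361), stood at 1.74, 0.180, 0.633 and 0.588 FPKM in NL and at 19.4, 26.6 and 22 FPKM in c-MYC. The rise of Mki67 was 38.5-fold (log2 fold change 5.27, SE 0.66, limma adjusted p 0.000301), and 6.96 on the log2 scale with NL 2 alone. Of 40 replication genes 37 were higher, with a median of 3.04. Among the 40, 6 stood under 1 FPKM in every NL library and likewise could differ only by being higher. The helicase subunits Mcm2 and Mcm6 rose by 4.11 and 4.75 and Uhrf1, which keeps DNA methylation through replication, by 4.83. Mcm10 ran against the list and fell, with averages of 51.9 FPKM ± 11.1 in the 4 NL livers (SD) and 7.46 FPKM ± 1.08 in the 3 tumours (SD). Tk1, a known S phase gene of nucleotide synthesis, was not called (0.53).

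The G1 cyclins went in opposite directions. Of 27 regulators of G1 and CDK inhibitors, 18 were higher and 4 lower, and with equal FPKM totals 22 were higher and 2 lower. Ccnd1 stood at 16.5, 15.2, 7.15 and 13.4 FPKM in NL and at 0.818, 0.869 and 1.06 FPKM in c-MYC, a fall of 13.7-fold (limma adjusted p 1.02e-05). Ccnd2 was called lower as well, though not with equal FPKM totals, while Ccnd3 rose by 2.02 and Ccne1 by 3.78. Inhibitors rose beside the cyclins. Cdkn1a, the p53-induced inhibitor, rose by 4.30 and Cdkn1c, an imprinted inhibitor, by 4.89. Of 15 tested BCL2 family genes, 4 were higher (26.7%), 3 lower (20%) and 8 not called, with a median log2 fold change of 0.33. They were thus called about as often as all genes (25.2% higher and 25.0% lower). Those called were the pro-apoptotic Bax, Bak1, Bbc3 and Pmaip1, which were higher, and Bcl2l1, Bcl2l2 and Bnip3l, which were lower. Among the 15, 1 stood under 1 FPKM in every NL library and could differ only by being higher. With 1 FPKM added to every value, the log2 fold change of Pmaip1 was 0.93 in place of 3.06. With equal FPKM totals, 8 of the family were higher and none was lower. Mcl1 was not called (0.33), and whether it would count reads of an MCL1 plasmid is not given.

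Genes that supply building blocks for growth rose for the larger part. Of 25 genes of nucleotide synthesis 18 were higher, among them Ctps (3.77) and Rrm2 (4.28), and Adssl1 was lower. Of 12 tested genes of serine, one-carbon and proline synthesis 8 were higher, with a median log2 fold change of 3.62. Phgdh, which opens serine synthesis (chromosome 3, 98313170 to 98339990), stood at 32.5, 2.58, 17.4 and 7.71 FPKM in NL and at 481, 424 and 497 FPKM in c-MYC, a rise of 45.3-fold (log2 fold change 5.50, SE 0.77, limma adjusted p 0.000598). In NL, Phgdh had the order of H19 and Afp. Psat1 of the same pathway rose by 5.53 and Asns, which makes asparagine, by 5.26, while Aldh1l1, which burns folate-bound carbon in the adult liver, fell by 6.70. Of 12 amino acid transporters, the liver carriers Slc38a3, Slc38a4 and Slc7a2 were lower. The 5 that were higher were led by Slc7a1 (5.56) and followed by Slc7a6, Slc7a5, Slc1a5 and Slc38a1. Among the 12, 3 stood under 1 FPKM in every NL library and could differ only by being higher. Of 20 glycolysis genes 11 were higher, among them Hk2 (4.70), Pkm (3.83) and the lactate exporter Slc16a3 (4.60), and 3 were lower. Of 19 chaperonins and heat shock proteins 12 were higher and none was lower.

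Gene pairs were compared within each library, where the scaling cancels. For 12 gene pairs, the FPKM of the gene taken as the other form was divided by that of the gene taken as the adult liver form. These roles were set by hand, and not every pair holds 2 forms of 1 enzyme. The pairs were chosen with earlier results of these data known, so that their common direction is no independent evidence. Khk and Hk1, for instance, are ketohexokinase and hexokinase 1. Acaca stood at 0.485 to 0.757 of Acacb in NL, so that both were expressed in normal liver. In all 12 the 3 c-MYC ratios lay above the 4 NL ratios, and 10 of the 12 pairs had the adult form called lower and the other form called higher. Of all genes, 25.0% were called lower and 25.2% higher. For 6 pairs the adult form was ahead in every NL library and the other form in every c-MYC library, namely Pkm over Pklr, Scd2 over Scd1, Acaca over Acacb, Igf2 over Igf1, Slc7a1 over Slc7a2 and Afp over Alb. The ratio of Pkm to Pklr was 0.0640 to 0.254 in NL and 5.23 to 22 in c-MYC. That of Scd2 to Scd1 was 0.00107 to 0.0195 in NL and 16.7 to 27.4 in c-MYC. The c-MYC ratio of Gys1 to Gys2, the muscle and liver glycogen synthases, was 3.11 in c-MYC 1 but 0.523 and 0.645 in the other tumours. Acaca itself was not called (-0.53), so that its ratio moved through the fall of Acacb. The gene taken as the liver form remained ahead in every tumour for Mat1a over Mat2a, Pygl over Pygb and Khk over Hk1.

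**Figure D3:**
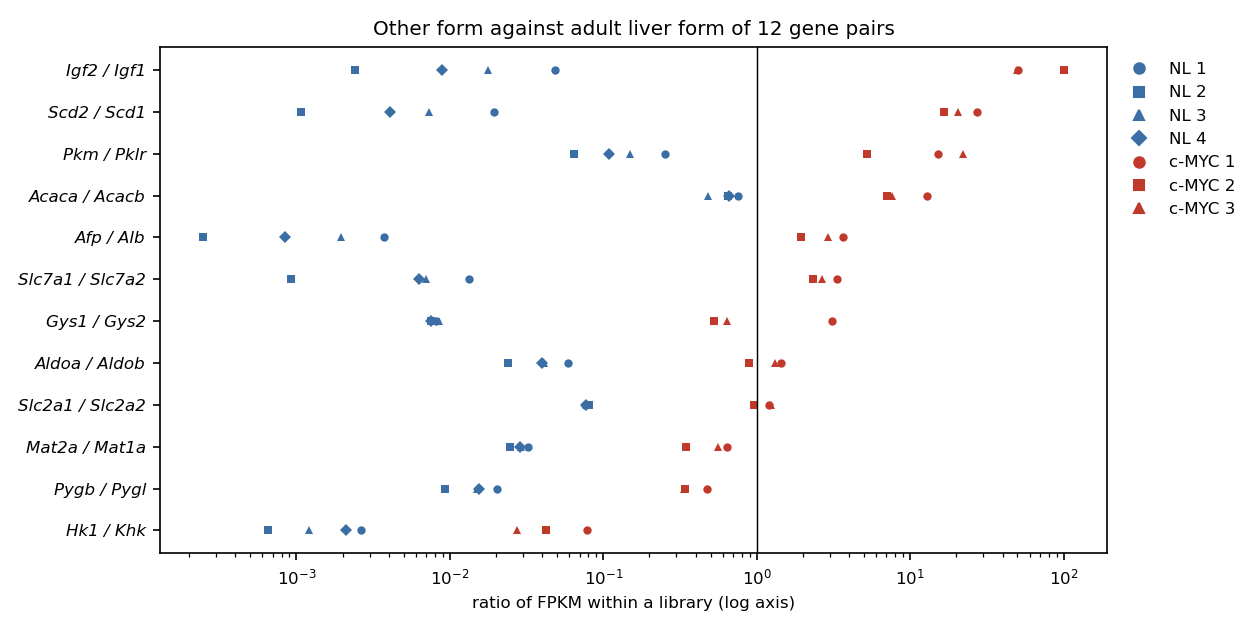
Ratio of FPKM of the gene taken as the other form to that taken as the adult liver form, for 12 gene pairs within each library. The axis is a log axis, NL is blue, c-MYC is red and each library has a marker shape. A vertical line stands where both genes are equal. Every pair has its c-MYC ratios to the right of its NL ratios, and in 6 pairs the ratios move from below 1 in all NL libraries to above 1 in all c-MYC libraries.

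Among the 20 largest increases with at least 10 FPKM in a group, 11 belonged to the lists above. Log2 fold changes of these 20 ran from 5.52 to 6.27. Of those outside the lists, the phosphatase gene Dusp9 rose by 5.82, the imprinted gene Phlda2 by 5.58 and the spindle gene Fam83d by 5.52. These are examples, and the largest of the 20 rises, also outside the lists, is not described.

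**Figure D4:**
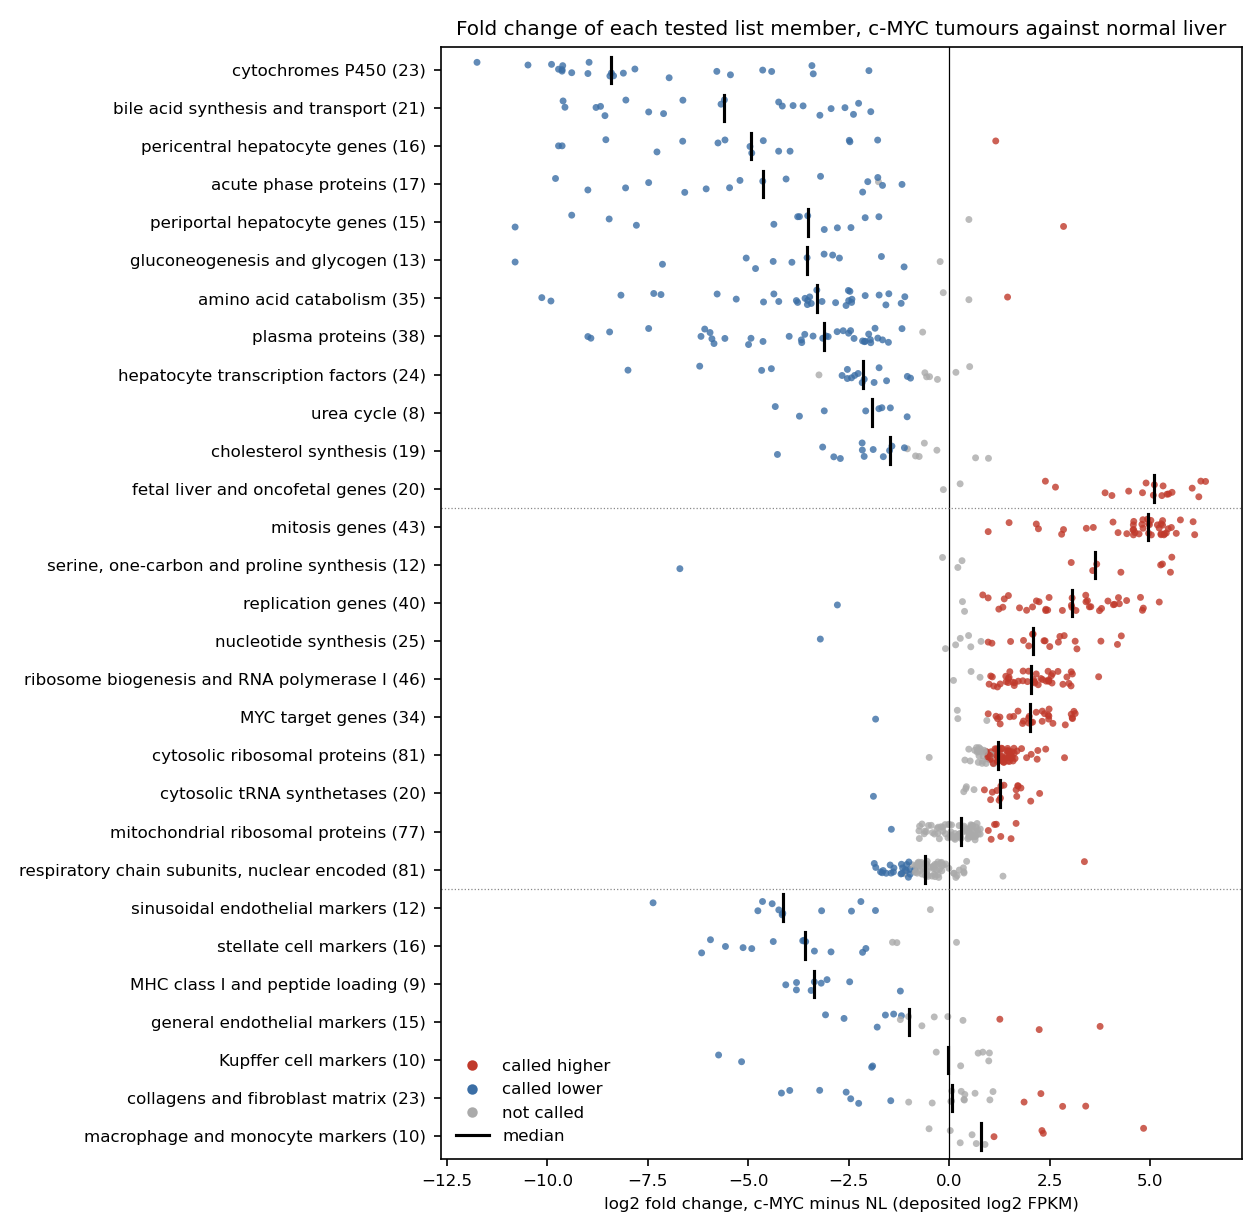
Log2 fold change (c-MYC minus NL, deposited scale) of every tested member of 29 gene lists, with the number tested in brackets, red for genes called higher, blue for genes called lower, grey for genes not called and a black bar at the median. The top block holds hepatocyte lists, with medians below 0 except that of the fetal list, the middle block growth lists, with medians above 0 except that of the respiratory chain, and the bottom block stromal and immune lists of either sign. With equal FPKM totals all values shift to the right, and the medians of the respiratory chain and Kupffer cell lists become positive (0.33 and 0.90).

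Markers of stromal cells particular to the liver fell. Of 12 tested markers of the sinusoidal endothelium, 11 were lower (91.7%, against 25.0% of all genes) and none was higher, with a median log2 fold change of -4.15. However, 8 of the 12 stood under 1 FPKM in every c-MYC library, passed through NL and could differ only by being lower. Over all 14 markers in the table, fitted with no filter, 12 were lower and none was higher, with a median of -4.01. Their summed level was 83.5 to 106 FPKM in NL and 10.6 to 11.4 FPKM in c-MYC. Clec4g, a lectin of these cells (chromosome 8, 3707064 to 3720651), stood at 30.9, 33.8, 28.1 and 41.8 FPKM in NL and held 4, 0 and 5 reads in c-MYC 1 to 3. The angiocrine factors Wnt2 and Rspo3, by which this endothelium signals to pericentral hepatocytes, were at least 14.8-fold and 25.3-fold lower. Markers shared by all endothelium did not move together. Of 15 tested, 6 were lower (40%) and 3 higher (20%), against 25.0% and 25.2% of all genes. Pecam1 and Cdh5 were not called, with log2 fold changes of 0.34 and -0.04. Vwf and Eng fell by 3.08 and 2.62, and Cd34 and Esm1, which mark capillary and tip cells, rose by 2.23 and 3.75. Among the 15, 2 stood under 1 FPKM in every NL library, with Esm1 as 1 of them, and could differ only by being higher. In every c-MYC library 1 of the 15 stood under 1 FPKM and could differ only by being lower. The balance turned with the scaling, since with equal FPKM totals 2 were lower and 4 higher and the median log2 fold change was -0.09 in place of -1.02. With NL 2 alone 4 were lower and 1 higher, and Cd34 was not called (1.85).

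Markers of stellate cells fell as well. Of 16 tested stellate cell markers, 13 were lower (81.2%, against 25.0% of all genes) and none was higher, with a median log2 fold change of -3.60. Here too, 8 of the 16 stood under 1 FPKM in every c-MYC library and could differ only by being lower. Over all 17 markers in the table, fitted with no filter, 14 were lower and none was higher, with a median of -3.58. Their summed level went from 243 to 271 FPKM in NL to 30.7 to 47.9 FPKM in c-MYC. Lrat, which stores retinoids in these cells (chromosome 3, 82892579 to 82903973), stood at 3.95, 4.40, 3.41 and 3.65 FPKM in NL and at 0.144, 0.0321 and 0.114 FPKM in c-MYC, where it held 12, 1 and 9 reads. Reln and the hepatocyte growth factor gene Hgf fell by 5.94 and 3.36. Pdgfrb, which pericytes and fibroblasts also express, was not called (0.18), nor was Des (-1.31), which was called without c-MYC 1 (-1.50). The c-MYC 2 library held the least of Lrat, Reln, Pdgfrb and Des among the tumours.

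Matrix genes moved both ways. Of 23 tested genes of collagens and fibroblast matrix, 7 were lower (30.4%) and 4 higher (17.4%), with a median log2 fold change of 0.06, so that they were called about as often as all genes (25.0% and 25.2%). This balance turned to 6 lower and 9 higher with equal FPKM totals, with a median of 0.99. The basement membrane collagen Col4a1 (chromosome 8, 11198423 to 11312826) stood at 147, 80.6, 97.8 and 87.3 FPKM in NL and at 893, 1282 and 1016 FPKM in c-MYC, a rise of 10.5-fold (log2 fold change 3.39, SE 0.21, limma adjusted p 4.6e-06), and Col4a2 rose by 2.82. The proteoglycans Dcn and Lum fell by 4.18 and 3.97, the fibronectin gene Fn1 by 2.26 and Col18a1, which hepatocytes also make, by 1.46, a call lost with equal FPKM totals (-0.53). Of the fibrillar collagens, Col1a1 rose by 1.86 (limma adjusted p 0.0244) and Col3a1 was not called (0.30). Both differed between tumours, with 10.3, 3.16 and 11.4 FPKM of Col1a1 and 10.2, 3.64 and 10.4 FPKM of Col3a1 in c-MYC 1 to 3. Without c-MYC 2 the log2 fold change of Col1a1 was 2.45, and without c-MYC 1 and without c-MYC 3 it was 1.60 and 1.53, no longer called, and the call was also lost without NL 2 (1.79), NL 3 (1.80) or NL 4 (1.77). The myofibroblast gene Acta2 was not called (1.01), but was without c-MYC 2 (1.54).

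Macrophage markers did not move as a group. Of 10 tested Kupffer cell markers, 4 were lower and none was higher, with a median log2 fold change of -0.02 that was 0.90 with equal FPKM totals, where 5 were higher and 2 lower. With NL 2 alone 2 were higher and 1 lower. Clec4f, the most specific Kupffer cell gene (chromosome 6, 83644542 to 83656187), stood at 244, 177, 149 and 263 FPKM in NL and at 5.21, 1.42 and 7.36 FPKM in c-MYC, a fall of 53.5-fold (log2 fold change -5.74, SE 0.53, limma adjusted p 6.06e-05). Vsig4 fell by 5.17, and was not called with NL 2 alone (-4.84). Timd4, Cd5l and the complement gene C1qa, on the same list, were not called, with log2 fold changes of 0.98, 1.0 and 0.28, although Timd4 was called without NL 1 (1.14). Of 10 tested macrophage and monocyte markers, 4 were higher and none was lower, with a median of 0.78, and 7 were higher with equal FPKM totals. Cd68 stood at 9.15, 4.58, 6.84 and 7.53 FPKM in NL and at 33.5, 32.2 and 37.9 FPKM in c-MYC, a rise of 5.05-fold (limma adjusted p 6.67e-05). Lyz2 rose by 2.30, whereas the pan-macrophage genes Csf1r and Adgre1 were not called (-0.50 and 0.27). Gpnmb held at most 2 reads in each NL library and was at least 20.2-fold higher. It stood under 1 FPKM in every NL library and could differ only by being higher. Ptprc, which marks all leukocytes, stood at 1.27 FPKM ± 0.211 (SD, n = 4) in NL and 1.86 FPKM ± 0.117 (SD, n = 3) in c-MYC and was not called (0.57).

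Lymphoid and granulocytic cells were near the limit of the libraries. Of 23 markers of T and NK cells 9 were in the table and 2 passed the filter, and neither was called. Of 10 B cell markers 3 were tested and of 9 neutrophil markers 2, with none called. Of the 2 tested dendritic markers Zbtb46 was lower (-1.66), a call lost with equal FPKM totals (-0.74). These 2 dendritic markers stood under 1 FPKM in every c-MYC library and could differ only by being lower. Over all 4 dendritic markers in the table, fitted with no filter, 1 was lower and none was higher. No gene passed on the list of the mesothelium. Erythroid genes, 5 of 5 tested, were lower, and their summed level was 1121 to 2224 FPKM in NL and 132 to 235 FPKM in c-MYC. The part of residual blood in other differences was not tested.

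Genes of antigen presentation fell. All 9 genes of MHC class I and peptide loading were lower, with a median log2 fold change of -3.36. H2-K1 (chromosome 17, 33996017 to 34000347) stood at 587, 515, 494 and 524 FPKM in NL and at 27.2, 29.2 and 39.4 FPKM in c-MYC, a fall of 16.8-fold (log2 fold change -4.07, SE 0.14, limma adjusted p 6.42e-08). B2m, the shared light chain, fell by 3.19 and the immunoproteasome subunit Psmb8 by 3.36. Of 5 tested MHC class II genes 4 were lower, and none with equal FPKM totals. Of 15 interferon response genes 5 were lower (33.3%, against 25.0% of all genes), among them Isg15 (-1.88). The chemokine gene Cxcl10 was higher (2.96, limma adjusted p 0.00019), and with equal FPKM totals 4 of the 15 were higher and 2 lower.

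**Figure D5:**
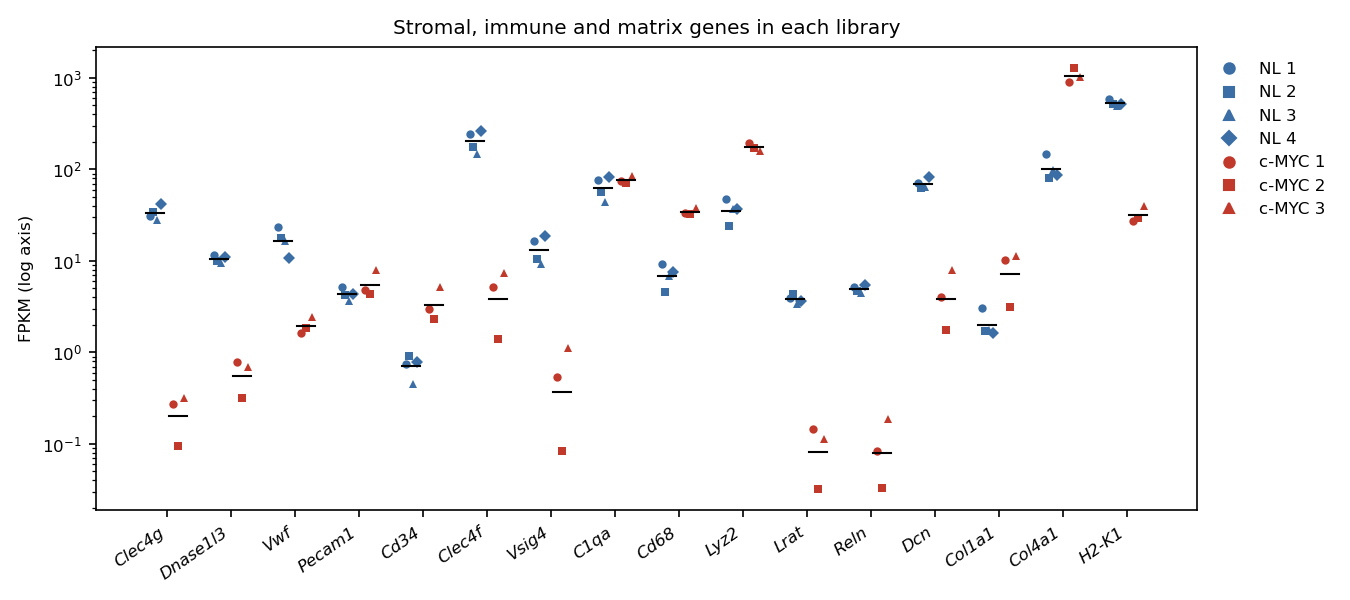
FPKM (log axis) of 16 stromal, immune and matrix genes in the 4 NL libraries (blue) and the 3 c-MYC libraries (red), with a marker shape per library and black bars at the geometric mean of each group. Clec4g, Clec4f, Vsig4, Lrat, Reln and Dcn are lower in c-MYC and lowest in c-MYC 2, Pecam1 and C1qa overlap between the groups, and Cd68, Lyz2 and Col4a1 are higher in every tumour.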

How the data were processed

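RNA of 4 normal livers (NL) and 3 c-MYC tumours was sequenced, each library from a separate mouse as far as the labels tell. Libraries were made after polyA capture or removal of ribosomal RNA, and which of them was used for which library is not given in the sources used here. The submitters' processing notes name FastQC 0.11.7 and the build GRCm38. The authors deposited log2 FPKM values computed with edgeR after scaling of the libraries, and each value includes a prior count of 2 reads that is scaled to the library. The deposited log2 values were used as they are for testing and were transformed back to FPKM for printing. Reads per gene were recovered from the deposited steps and used only to state depth (13123719 to 17031480 reads a library) and the reads behind low values. The 372 rows that name no gene were left out, and some results are not reported here.

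Genes with at least 1 FPKM in at least 3 of the 7 libraries were fitted with limma 3.58.1 and statmod 1.5.0 in R 4.3.3, with variance trend and robust estimation, and tested with treat against a 1.5-fold change. P-values were adjusted over all 12929 genes by the Benjamini-Hochberg method with a threshold of 0.05. This follows the authors' choice of a test against a fold change, which they ran on counts. A gene with at most 3 reads in every library of a group has its fold given as a bound at 3 reads in each of those libraries, for counting error only. Genes were named when they were the most changed or most abundant members of a list or define a cell type, and beyond the lists when they were among the 20 largest changes each way with a mean of at least 10 FPKM in a group. The lists, members and pairs were chosen with earlier results of these data known. The replicates of a group differed by more than sampling noise. Alternatives were other pseudocounts, filters, scalings, fold thresholds and variance settings, all 10 libraries in the fit, a replicate block, each library left out, and NL 2 as the only NL library. The procedure was tested on simulated data.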

Additional observations from a re-analysis of the deposited data

Results flagged for a closer look

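For 10 of 173 genes named, 5.78% of them, 1 NL library stood apart from the other 3 by Dixon's test at its 95% critical value for 4 libraries. Chance flags about 1 in 20 genes, and the 3 c-MYC libraries cannot be tested in this way. NL 1 was the high library for Acadm (266 FPKM), Col1a1 (3.07 FPKM), Mcm2 (5.41 FPKM) and Slc7a6 (0.659 FPKM) and the low library for Mat1a (1073 FPKM). NL 2 was the low library for Apoa1 (19139 FPKM) and Eif4e (54.4 FPKM). NL 3 was high for Cyp7a1 (1996 FPKM) and low for Fasn (108 FPKM), and NL 4 was low for Esm1 (0.0565 FPKM), where it held no read.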

How the results depend on the processing

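The numbers of genes called, higher and lower were within 1.5 times those given except under the following settings. With equal FPKM totals 6659 genes were higher and 1902 lower, and 77.8% of the calls were higher in place of 50.2%. The filter at a mean of 5 FPKM left 2151 higher, since fewer genes were tested. Without a fold threshold 9988 were called and 5193 were higher, and with a 2-fold threshold 2066 were higher. Leaving out 1 library gave 6150 to 6453 called, 3043 to 3346 higher and 3107 to 3194 lower. With a replicate block 6075 genes were called, 3007 higher and 3068 lower. Libraries of the same number had correlations of their deviations of -0.018, 0.002 and 0.011, so that they share only a number. Of 146 genes named and called, 21 lost the call under some setting, and none changed sign. The calls lost with equal FPKM totals were those of Bcl2l1 (-0.13), Bcl2l2 (-0.74), Bnip3l (-0.28), Ccnd2 (-0.91), Col18a1 (-0.53), Foxa1 (-3.74), Hnf4a (-0.04), Pygl (-0.76) and Zbtb46 (-0.74). Those lost with NL 2 alone were Cd34 (1.85), Col1a1 (2.06), Foxa1 (-4.83), Hnf4a (-0.81), Pygl (-1.86), Vsig4 (-4.84) and Znrf3 (1.13). Among the fits without 1 library, beside those given with Col1a1, Foxa1, Hnf4a and Znrf3, Bcl2l1 was lost without c-MYC 2 (-0.92), Mat2a without c-MYC 3 (0.85) and Drc3 without NL 3 (1.66), c-MYC 1 (1.82), c-MYC 2 (1.86) or c-MYC 3 (1.75), and Hk1 was called without c-MYC 3 (1.84).

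Signs turned for 13 genes, none of them called. With equal FPKM totals the log2 fold change was 0.40 for Acaca, 0.49 for Acot3, 0.89 for Cdh5, 0.42 for Csf1r, 0.78 for Gpc3, 0.26 for Itih3, 0.55 for Otub2, 0.70 for Pcx and 0.43 for Rpl35a. With quantile normalization it was 0.20 for Gpc3, 0.06 for Itih3 and 0.44 for Pcx. With a replicate block it was 0.01 for Gpc3. With NL 2 alone it was 0.28 for Gpc3, -0.57 for Mest and 0.31 for Otub2. Over the fits that each left out 1 library, log2 fold changes ran from -0.03 to 0.12 for Acadm, from -0.26 to 0.20 for Cdh5, from -0.67 to 0.20 for Gpc3, from -0.13 to 0.65 for Mest, from -0.01 to 0.50 for Pdgfrb and from -0.05 to 0.38 for Prox1. Apart from the smaller number of genes tested at the higher filter, the cause was not tested. Levels of under about 1 FPKM rest on few reads, which limits the folds of such genes.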

Other observations

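Of 19 tested replication-dependent histone genes, 7 were higher (36.8%) and 4 lower (21.1%), against 25.2% and 25.0% of all genes. Among the 40 replication genes, 37 were higher. Under 1 FPKM stood 7 of the 19 histone genes in every NL library and 2 in every c-MYC library. With no filter, 11 of the 38 histone genes in the table were higher and 4 lower. These histone RNAs lack a polyA tail in most cases, so that their level depends on how the libraries were made, which is not given per library. Of 8 tested immediate early genes, which respond to handling of tissue within minutes, 3 were lower and none was higher, with a median log2 fold change of -0.42, and with equal FPKM totals 1 was lower and 1 higher, with a median of 0.50. The 16 tested Ugt genes, which attach glucuronic acid to drugs and bilirubin, included 14 lower and none higher, and 3 of 5 Serpina3 genes were lower.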
